A study of Mus musculus with 10 samples.

Results

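Molecular chaperones are the proteins that fold, refold and hand on other proteins. The 53 genes described here encode the Hsp90, Hsp70, Hsp110 and Hsp60 chaperones, the J proteins that recruit Hsp70, and the subunits of the cytosolic chaperonin TRiC. They were the genes of the measured table whose symbol starts with Hsp, Dnaj or Cct and names a chaperone or chaperonin, plus Tcp1. The stress chaperones of the endoplasmic reticulum Hspa5, Hsp90b1, Dnajb9, Dnajb11 and Dnajc3 were left aside. Of 79 protein-coding symbols that fit this rule in the mouse annotation, 53 were among the 9690 genes measured. The other 26, among them the heat-inducible Hsp70 genes Hspa1a and Hspa1b and the small heat shock protein Hspb1, are not analysed here. The set holds 2 Hsp90 genes, 9 genes of the Hsp70 and Hsp110 family, 1 Hsp70 regulator, the 2 genes of the mitochondrial chaperonin, 3 J proteins of class A, 7 of class B and 21 of class C, and 8 TRiC subunits. The name cytosolic does not hold for all of them, because 9 of the products work in mitochondria and 7 at or in the endoplasmic reticulum, leaving 37 in the cytosol or elsewhere.

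RNA was sequenced from unstimulated B cells from spleens of female C57BL/6J mice, labelled as knockout or wild type for LSD1, the histone demethylase encoded by Kdm1a. There were 2 libraries of knockout marginal zone B cells (MZB), 3 of wild-type MZB, 3 of knockout follicular B cells (FoB) and 2 of wild-type FoB, each from 50000 cells. MZB, the innate-like cells at the rim of the white pulp, were sorted as B220+ CD23- CD21hi CD1d+ and FoB, the recirculating cells of the follicle, as B220+ CD23+ CD21mid CD1d-. Both sorts left out cells with Thy1.1, F4/80, CD11b, CD93 or GL7. The labels name neither the driver of the deletion nor the age of the mice, nor do they state whether a group's libraries stem from different animals. The p-values therefore speak only for the spread among these libraries, which can be technical.

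Hsp70 binds short unfolded stretches and releases them as it cycles between ATP and ADP. J proteins start that cycle, Hsp110 proteins and Hspbp1 drive nucleotide exchange, and clients can pass on to Hsp90 for maturation of kinases and receptors or to the TRiC chamber for folding of actin and tubulin. In mitochondria, the Hsp60 barrel and its Hsp10 lid do the work of a folding chamber. Many chaperone genes are driven by heat shock factor 1, which binds inverted repeats of the letters GAA near their starts.

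Values were the authors' mRNA molecules per cell, which work for most genes as levels per length, so that comparisons between genes are approximate. They are also given rescaled, that is after each library was divided by a common factor, so that a rescaled difference is one relative to the other genes. Whole reads recovered from the values summed to between 4161051 and 6711847 per library, and members averaged from 17.2 to 8808.3 reads. Summed mRNA per cell over all genes ran from 43561.9 to 121070.6, higher in MZB than in FoB, and the factors ran from 0.625 to 1.76. Kdm1a stood at 5.38 and 5.94 mRNA per cell in knockout MZB against 6.37, 8.37 and 7.90 in wild-type MZB, and at 2.04, 2.36 and 1.93 in knockout FoB against 5.58 and 4.34 in wild-type FoB. On the log2 scale it fell by 0.69 rescaled in knockout MZB (limma adjusted p = 0.000463), where the per-cell difference of -0.39 did not pass, and by 1.10 in knockout FoB (limma adjusted p = 2.50e-05 rescaled), so that Kdm1a message was lower but present in the knockout libraries. Between the wild-type cells, all 6 MZB markers listed were higher in MZB after rescaling, and the 3 FoB markers reported here (Fcer2a, Itgb7 and Klf2) were lower. In knockout MZB, these 3 FoB markers were higher than in wild-type MZB and 3 of the 6 MZB markers were lower after rescaling (limma, adjusted p under 0.05). In bulk samples, fewer cells of a type and less RNA per cell cannot be told apart.

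Promoter windows are shown for 4 members that carry the letters of the heat shock element and whose levels differed between libraries of a group or between cell types, or that serve as their comparison. Each window runs 5′ to 3′ from 250 bases before to 50 bases after the start of the gene, from RefSeq on GRCm38.p6, the assembly of mm10. Capitals mark matches to GAANNTTC, with N for any base, and to its longer forms, in which NNGAA follows it or TTCNN precedes it.
Hspe1 (chr1:55087898-55088197, plus strand): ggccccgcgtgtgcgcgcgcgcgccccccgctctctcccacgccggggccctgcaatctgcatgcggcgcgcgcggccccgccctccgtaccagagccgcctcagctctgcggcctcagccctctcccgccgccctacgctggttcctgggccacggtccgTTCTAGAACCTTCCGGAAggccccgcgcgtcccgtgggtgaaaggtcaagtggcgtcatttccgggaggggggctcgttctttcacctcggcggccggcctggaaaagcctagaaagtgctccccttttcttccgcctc
Hsph1 (chr5:149636266-149636565, minus strand): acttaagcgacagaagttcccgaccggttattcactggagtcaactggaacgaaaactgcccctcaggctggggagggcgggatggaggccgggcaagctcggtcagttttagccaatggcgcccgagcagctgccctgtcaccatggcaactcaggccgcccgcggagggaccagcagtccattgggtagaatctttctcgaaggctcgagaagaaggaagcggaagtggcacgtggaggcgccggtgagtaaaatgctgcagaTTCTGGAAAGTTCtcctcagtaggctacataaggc
Dnajb6 (chr5:29735648-29735947, plus strand): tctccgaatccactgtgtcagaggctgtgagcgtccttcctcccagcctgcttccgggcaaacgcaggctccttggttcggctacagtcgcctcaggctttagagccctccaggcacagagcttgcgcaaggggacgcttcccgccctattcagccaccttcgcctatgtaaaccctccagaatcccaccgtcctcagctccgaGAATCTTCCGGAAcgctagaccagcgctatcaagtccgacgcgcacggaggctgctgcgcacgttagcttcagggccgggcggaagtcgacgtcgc
Dnaja1 (chr4:40722218-40722517, plus strand): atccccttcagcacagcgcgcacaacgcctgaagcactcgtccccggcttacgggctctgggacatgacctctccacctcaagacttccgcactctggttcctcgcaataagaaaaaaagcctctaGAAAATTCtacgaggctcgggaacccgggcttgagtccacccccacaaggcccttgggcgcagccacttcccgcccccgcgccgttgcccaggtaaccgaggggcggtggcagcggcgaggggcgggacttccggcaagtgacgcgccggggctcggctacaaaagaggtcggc

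Of the 53 members, 42 had a promoter window in that table, and those of Cct4, Dnajc11, Dnajc18, Dnajc2, Dnajc30, Dnajc5, Hsp90aa1, Hsp90ab1, Hspa13, Hspa8 and Hspa9 were not analysed here. GAANNTTC, which reads the same on both strands, was found in 7 of these 42 members (16.67%), against 528 of 7753 genes of the table (6.81%) and 2442 of 27025 genes with any window (9.04%). The 7 were Cct2, Dnaja1, Dnajb6, Dnajc27, Hspd1, Hspe1 and Hsph1. A gene was counted if any of its windows held the letters, with 58 windows for the 42 members and 9815 for the 7753 genes of the table. A longer form on either strand, which contains GAANNTTC and so overlaps it, was found in 4 of 42 members (9.52%), against 43 of 7753 genes of the table (0.55%) and 179 of 27025 (0.66%). The 4 were Dnajb6, Hspd1, Hspe1 and Hsph1. Hspd1 and Hspe1, which encode Hsp60 and Hsp10, lie head to head, so that the Hspd1 window (chr1:55087883-55088182, minus strand) holds the same match as the Hspe1 window shown. In the Hspe1 window shown, GAANNTTC began 84 bases before the window's start (position -84), in that of Dnaja1 at -124 and in that of Dnajb6 at -46. In the Hsph1 window shown it lay 20 bases after the window's start. That start lies inside the annotated span of Hsph1 (chr5:149616843-149636498). In a further window the match lay at -127 for Dnajb6 and at 41 for Hsph1, while further windows of Dnaja1 and Hspd1 held none. A match is a description of letters and shows no binding.

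The chaperone message was concentrated in a few genes. Hsp90ab1, the constitutive Hsp90, stood highest, at 140.4 mRNA per cell over the 10 libraries, followed by Hspa8, the constitutive Hsp70 of the cytosol, at 72.3. Dnajc7, a J protein that also binds Hsp90, came next at 42.3, in each of the 4 group means too. These first 3 genes gave 38.5% to 43.4% of the members' summed mRNA per library, and the first 10 gave 63.3% to 69.2%. At the other end, Hspa2, an Hsp70 best known from testis, averaged 0.416 mRNA per cell and Dnajb13, a J protein of cilia and sperm tails, 0.664.

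In all, the 53 members summed to 856.7 and 1097.1 mRNA per cell in knockout MZB, against 624.2, 914.6 and 761.9 in wild-type MZB, and to 362.1, 499.1 and 379.8 in knockout FoB, against 467.0 and 365.1 in wild-type FoB. The sums of all 5 MZB libraries lay above those of all 5 FoB libraries, while knockout and wild-type libraries overlapped within each cell type. As a share of all genes, the members made up 0.859% ± 0.067 in knockout MZB (SD, n = 2) and 0.859% ± 0.050 in wild-type MZB (SD, n = 3). In knockout FoB the share was 0.840% ± 0.077 (SD, n = 3), against 0.817% ± 0.014 in wild-type FoB (n = 2). The 4 mean shares lay within the spread between libraries, while the sum per cell was 1.84 times as high in wild-type MZB as in wild-type FoB.

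**Figure D1:**
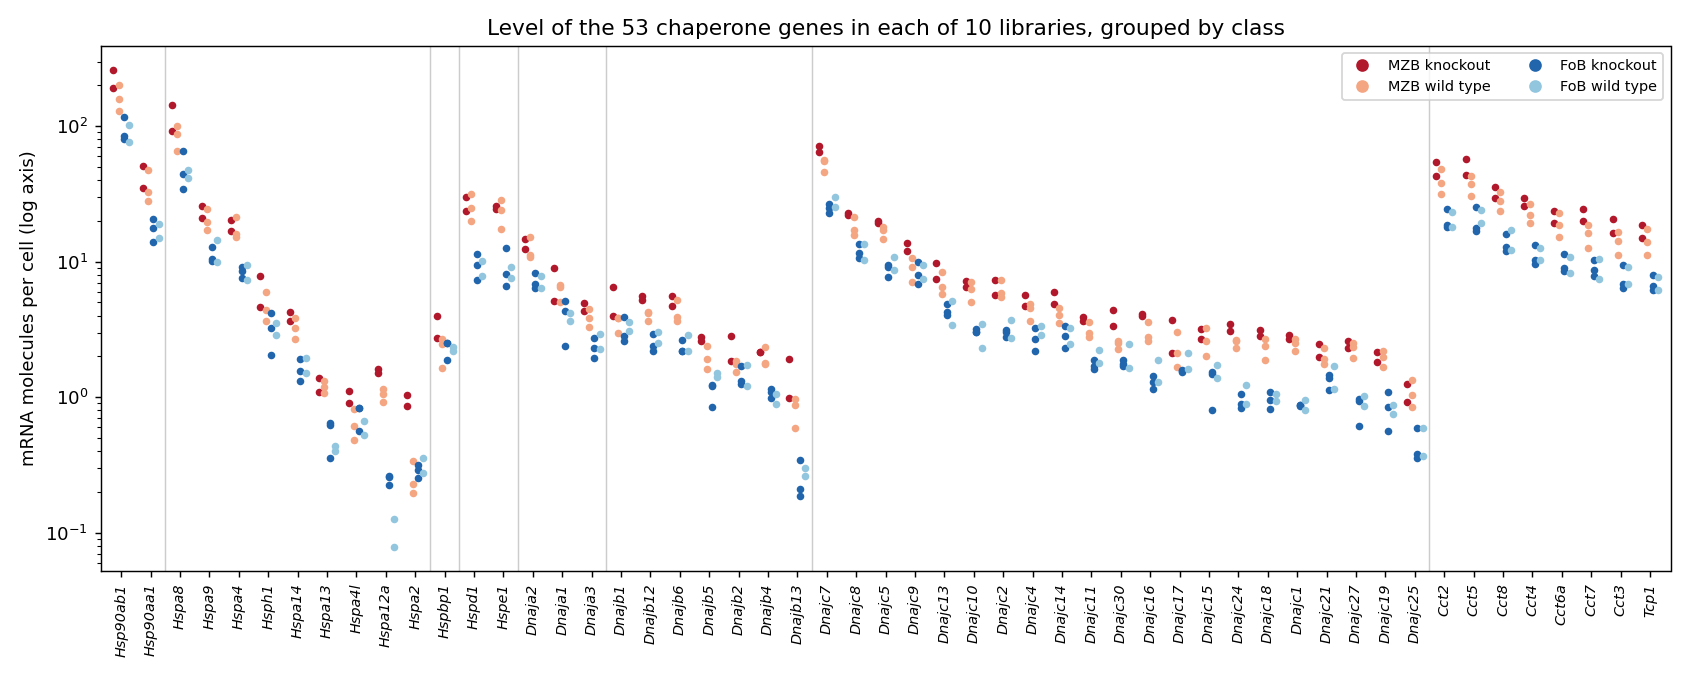
Each point is 1 library, with mRNA molecules per cell on a log axis, for the 53 chaperone genes ordered by level within their class (vertical lines part the classes, from Hsp90 on the left to TRiC on the right). Levels span from 140.4 for Hsp90ab1 to 0.416 for Hspa2 as means over 10 libraries, and most MZB points lie above the FoB points of the same gene.

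The first comparison set wild-type MZB against wild-type FoB, which asks how the 2 cell types differ when LSD1 is present. Per cell, 44 of the 53 members were higher in MZB and 0 were lower (limma on log2 of value + 0.3, Benjamini-Hochberg adjusted p under 0.05). This is the background: 84.2% of all genes were called higher in the same way and 1.67% lower (85.9% in either direction), and the median log2 difference was 0.81 for the members and 0.78 for all genes. The 10 members with the smallest p were Hspa12a (1.73), Hspd1 (1.47), Hspe1 (1.43), Dnajc1 (1.23), Dnajc24 (1.07), Dnajc27 (1.04), Hspa13 (1.05), Dnajc18 (1.01), Dnajc10 (1.02) and Dnajc19 (1.01), as log2 differences per cell.

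After rescaling, the members parted in both directions. Of the 53, 7 were higher in wild-type MZB and 14 were lower, against 25% of all genes called higher, 24.9% called lower and 49.9% called in either direction. The members' share of 39.6% called in either direction was below that background, and their median log2 difference was -0.05, against 0 for all genes. Without wild-type FoB library 1 there were 10 calls, and without wild-type FoB library 2 there were 12. The calls fell unevenly over the classes. Both genes of the mitochondrial chaperonin were higher, 4 of 7 class B J proteins and the regulator Hspbp1 were lower, and 0 of 8 TRiC subunits and 0 of 2 Hsp90 genes were called (also 0 at an unadjusted p under 0.05 and 0 with limma voom on recovered reads).

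Hspd1, the mitochondrial Hsp60, and Hspe1, its Hsp10 lid, were the most abundant of the 7 members called higher. Hspd1 stood at 20.1, 31.8 and 24.9 mRNA per cell in wild-type MZB, against 10.1 and 7.78 in wild-type FoB. Hspe1 stood at 17.5, 28.4 and 24.0 in wild-type MZB, against 9.11 and 7.57 in wild-type FoB. For both genes each MZB library lay well above each FoB library, and the share of all genes that part in this way was not counted. Rescaled, Hspd1 averaged 19.3 ± 2.05 in wild-type MZB (n = 3) and 12.5 ± 0.307 in wild-type FoB (n = 2, SD), a log2 difference of 0.61 ± 0.13 (SE, limma adjusted p = 0.00315). Hspe1 averaged 17.5 ± 1.93 in wild-type MZB (n = 3) and 11.7 ± 0.357 in wild-type FoB (n = 2, SD), a log2 difference of 0.57 ± 0.17 (SE, limma adjusted p = 0.0163), which no longer passed without wild-type MZB library 2 or without either wild-type FoB library (highest adjusted p 0.0869). Together they made up 0.0545% ± 0.0052 of all mRNA in wild-type MZB (n = 3) and 0.0340% ± 0.0001 in wild-type FoB (n = 2), as mean ± SD. Their annotated spans overlap, and the sources used here do not state whether reads were counted by strand, so that some reads of the overlap cannot be assigned between them. The same holds for Dnajc1, Dnajc7, Dnajc14, Dnajc17 and Dnajc19, each of which overlaps another measured gene.

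The pair kept nearly equal levels. The ratio of Hspd1 to Hspe1 ran only from 0.905 to 1.17 over the 10 libraries, with means of 1.07 in knockout MZB, 1.10 in wild-type MZB, 1.06 in knockout FoB and 1.07 in wild-type FoB. In the knockout libraries the difference between cell types was smaller: rescaled, Hspd1 averaged 16.2 ± 1.07 in knockout MZB (SD, n = 2) and 13.7 ± 2.43 in knockout FoB (SD, n = 3), a log2 difference of 0.25 ± 0.13 (SE, limma adjusted p = 0.162). For Hspe1 that difference was 0.24 ± 0.17 (SE, limma adjusted p = 0.291). The test of whether the knockout effects differed between MZB and FoB did not pass for either gene, at -0.35 ± 0.19 for Hspd1 (SE, limma adjusted p = 0.283) and -0.32 ± 0.24 for Hspe1 (SE, limma adjusted p = 0.434).

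The largest difference in log2 terms belonged to Hspa12a, a divergent Hsp70 relative. It stood at 0.924, 1.15 and 1.05 mRNA per cell in wild-type MZB, against 0.127 and 0.0785 in wild-type FoB. The reads behind these values were 172, 159 and 136 in wild-type MZB and 29 and 19 in wild-type FoB, and the groups were far apart. Rescaled, the log2 difference was 1.30 ± 0.12 (SE, limma adjusted p = 4.94e-06), and it passed in all 14 alternatives tried. In the knockout libraries Hspa12a stood at 1.61 and 1.51 in MZB, against 0.260, 0.257 and 0.223 in FoB, a rescaled difference of 0.92 ± 0.12 (SE, limma adjusted p = 0.000106).

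Of the other members higher in wild-type MZB after rescaling, 3 were J proteins of class C. In that class 3 of 21 were higher and 6 lower, against 25% and 24.9% of all genes. Dnajc1, a J protein of the endoplasmic reticulum membrane, stood at 1.95, 1.83 and 1.85 in rescaled mRNA per cell in wild-type MZB, against 1.20 and 1.26 in wild-type FoB, a log2 difference of 0.51 ± 0.09 (SE, limma adjusted p = 0.00116). Dnajc24, which acts in diphthamide synthesis, differed by 0.33 (limma adjusted p = 0.0235). Hspa13, a microsomal Hsp70, differed by 0.44 (limma adjusted p = 0.0461), and Dnajc18, another J protein of the endoplasmic reticulum, by 0.28 (limma adjusted p = 0.0489). Of these 4, Dnajc1 passed in all 14 alternatives, whereas Hspa13 and Dnajc18 failed whenever any 1 of the 5 wild-type libraries was left out, and Dnajc24 failed in 5 alternatives. By place, 3 of the 7 members of the endoplasmic reticulum were higher and 1 lower, 2 of the 9 mitochondrial members were higher and 3 lower, and of the 37 in the cytosol or elsewhere 2 were higher and 10 lower, to be read against 25% of all genes higher and 24.9% lower.

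The 3 members with the smallest p among those lower in wild-type MZB were Dnajc9, Hspbp1 and Dnajb1. Dnajc9, a J protein that also acts as a histone chaperone, stood at 6.23, 7.22 and 6.71 in rescaled mRNA per cell in wild-type MZB, against 11.9 and 11.8 in wild-type FoB. The log2 difference was -0.80 ± 0.08 (SE, limma adjusted p = 1.76e-05). Hspbp1, a nucleotide exchange factor that strips Hsp70 of its nucleotide, stood at 1.45, 1.69 and 1.98 in wild-type MZB, against 2.77 and 3.68 in wild-type FoB, a difference of -0.81 ± 0.15 (SE, limma adjusted p = 0.00104). Dnajb1, the main heat-inducible class B J protein, stood at 2.63, 2.60 and 2.86 in wild-type MZB against 4.49 and 4.85 in wild-type FoB, a difference of -0.73 ± 0.14 (SE, limma adjusted p = 0.00133). For all 3 genes the groups did not overlap after rescaling, and all 3 passed in all 14 alternatives. Because these 3 were picked by smallest p, a lack of overlap adds little. The share of all genes without overlap was not counted, here or for genes named later. Per cell none of the 3 passed. Their log2 differences were 0.06 for Dnajc9, -0.02 for Hspbp1 and 0.08 for Dnajb1, against a median of 0.78 for all genes. Dnajc9 averaged 8.92 ± 1.80 mRNA per cell in wild-type MZB (n = 3) and 8.49 ± 1.40 in wild-type FoB (n = 2, SD).

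Further members lower after rescaling were Dnajb2, a J protein that binds ubiquitin chains (-0.53, limma adjusted p = 0.00309), Hspa2 (-0.58, limma adjusted p = 0.00325), and Dnajc30 of mitochondria (-0.53, limma adjusted p = 0.00338). Hspa4l, an Hsp110 protein, differed by -0.55 (limma adjusted p = 0.00979), Dnajc14 by -0.35 (limma adjusted p = 0.00508), Dnajb12 of the endoplasmic reticulum membrane by -0.33 (limma adjusted p = 0.00632) and Dnaja3 of mitochondria by -0.29 (limma adjusted p = 0.00895). The remaining 4 were Dnajc17 (-0.55), Dnajb5 (-0.39), Dnajc8 (-0.27) and Dnajc11 (-0.22), with limma adjusted p from 0.0108 to 0.0372. Among the core chaperones, Hsp90ab1 differed by -0.02 ± 0.12, Hspa8 by 0.03 ± 0.19, Hsp90aa1, the inducible Hsp90, by 0.18 ± 0.15 and Hspa9, the mitochondrial Hsp70, by -0.13 ± 0.09 (rescaled log2 and SE), and none of these 4 passed. The Hsp110 genes Hspa4 and Hsph1 (0.18 and -0.34), the class A proteins Dnaja1 and Dnaja2 (-0.25 and -0.09) and Dnajb6, which holds back aggregation (-0.13), did not pass either.

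**Figure D2:**
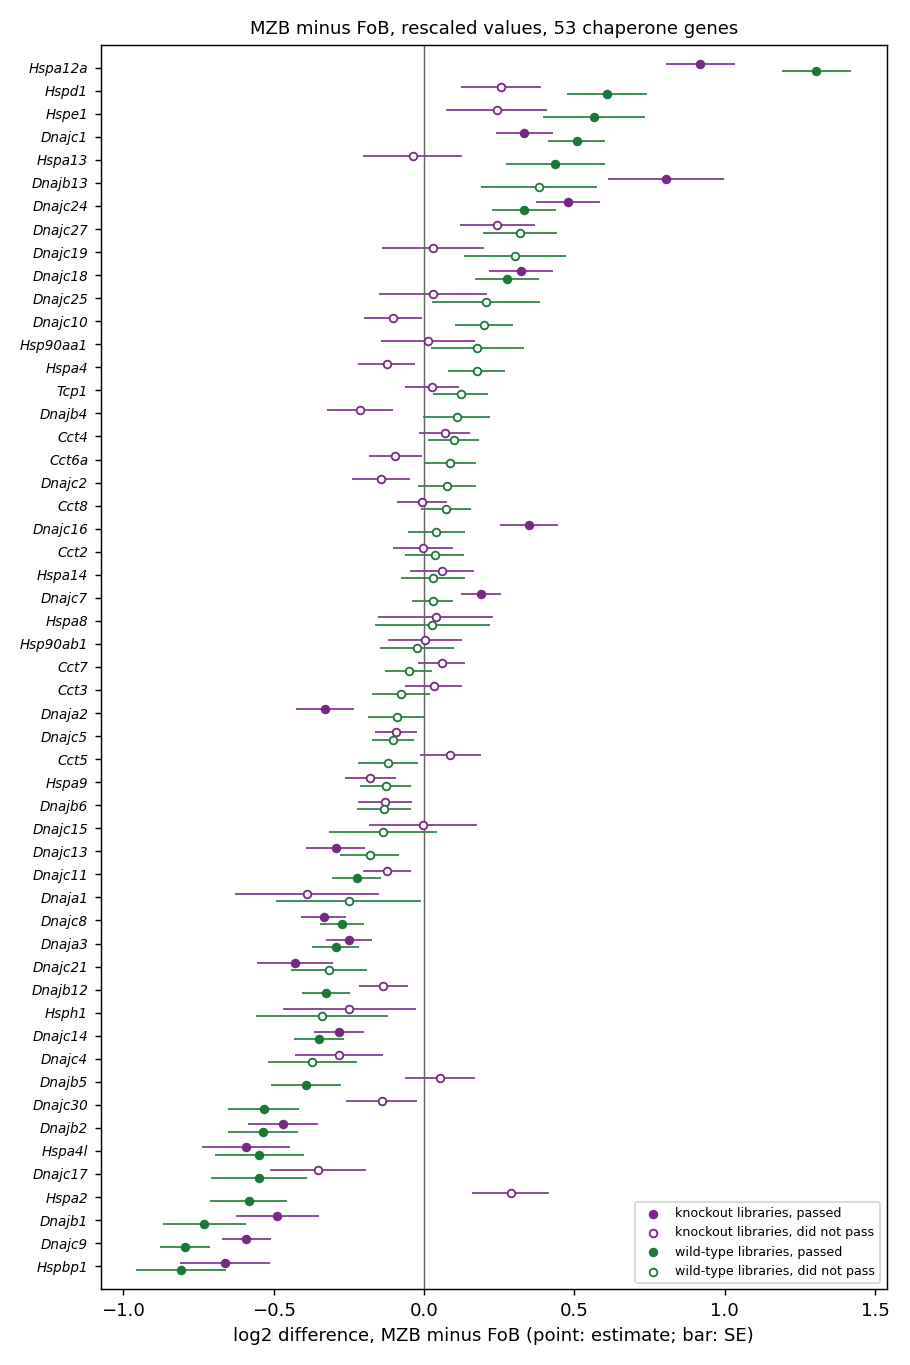
Rescaled log2 differences of MZB minus FoB for the 53 members, from knockout libraries (purple) and wild-type libraries (green), with bars for the SE and filled points where limma passed at an adjusted p under 0.05. Hspa12a, Hspd1 and Hspe1 lead on the higher side in wild-type libraries and Dnajb1, Dnajc9 and Hspbp1 on the lower side, while all TRiC subunits lie near 0.

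The same comparison in knockout libraries used other samples. There 7 members were higher in MZB and 11 lower after rescaling, against 18.2% of all genes called higher and 17% called lower (35.2% in either direction), and per cell 52 of 53 were higher, against 97.3% of all genes. The 18 rescaled calls were 4 without knockout MZB library 1, 11 without knockout MZB library 2 and 11 without knockout FoB library 2. Of the 21 members called between wild-type cells, 18 had the same sign in knockout cells and 12 were also called there in that direction. That is 57.1%, against 53.9% of all genes (2606 of 4838). The 3 with the opposite sign were Dnajb5, Hspa13 and Hspa2. Dnajc9 (-0.59, limma adjusted p = 0.000237), Hspbp1 (-0.66, limma adjusted p = 0.00513) and Dnajb1 (-0.49, limma adjusted p = 0.0184) were again lower in MZB, of which Hspbp1 failed without knockout MZB library 1, and Dnajb1 without that library or knockout FoB library 2. Called in knockout cells and not in wild-type cells were Dnajb13 (0.81), Dnajc16 (0.35) and Dnajc7 (0.19), higher in MZB, and Dnaja2 (-0.33), Dnajc13 (-0.29) and Dnajc21 (-0.43), lower in MZB, and each of these 6 calls failed without at least 1 of the knockout libraries. For none of these 6 did the test of the difference between the knockout effects pass.

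TRiC is a double ring with 8 different subunits in each ring, and the messages of its 8 subunits kept together across the groups. Their summed level was 213.2 and 264.5 mRNA per cell in knockout MZB, against 155.5, 226.2 and 188.5 in wild-type MZB, and 87.5, 118.3 and 88.6 in knockout FoB, against 115.4 and 88.5 in wild-type FoB. Every MZB library lay above every FoB library, and the genotypes overlapped within each cell type. Between wild-type cells, all 8 subunits were higher in MZB per cell, with log2 differences between 0.75 (Cct5, limma adjusted p = 0.00097) and 0.98 (Tcp1, limma adjusted p = 1.12e-05). After rescaling they ran from -0.12 for Cct5 to 0.12 for Tcp1, with SEs of 0.08 to 0.10. In both knockout comparisons and in the difference between knockout effects, 0 of 8 passed on either scale, also 0 after rescaling at an unadjusted p under 0.05 and with limma voom. Per cell, 3 of 8 (Cct3, Cct5 and Cct7) were higher in knockout MZB at an unadjusted p under 0.05. With wild-type MZB library 2 left out these 3 passed (limma adjusted p from 0.0243 to 0.0486). The share of all genes that did so by either criterion is not given here.

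Although the product is an assembly with equal numbers of each subunit, the mRNA levels were not equal. Cct2 gave 20.1% to 21.5% of the summed TRiC message and Cct5 18.8% to 21.8%. Cct8 gave 13.5% to 15.3% and Cct4 11.0% to 12.5%. Below these came Cct6a at 9.01% to 10.2%, Cct7 at 8.09% to 9.90%, Cct3 at 7.24% to 8.04% and Tcp1 at 6.71% to 7.68%. The highest subunit exceeded the lowest by 2.72 to 3.21 times in each library. Cct5 took a share of 20.6% and 21.6% in knockout MZB, against 19.7%, 18.8% and 19.9% in wild-type MZB, and Cct8 13.8% and 13.5% in knockout MZB, against 15.3%, 14.6% and 14.9% in wild-type MZB. Cct7 took 9.44% and 9.25% in knockout MZB, against 8.09%, 8.32% and 8.65% in wild-type MZB, and Cct6a 9.05% and 9.01% in knockout MZB, against 9.85%, 10.04% and 9.89% in wild-type MZB. Cct3 also took a larger share in knockout MZB, and Tcp1 a smaller one. Shares of a sum depend on each other, and how often all genes part between these few libraries was not examined. None of the rescaled changes passed, the largest being 0.17 ± 0.08 for Cct7 (SE, limma adjusted p = 0.23). Cct6a overlaps Psph, Cct7 overlaps Pradc1, Cct8 overlaps Usp16 and Tcp1 overlaps Mrpl18 in the annotation, so that part of their reads may belong to these neighbours.

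**Figure D3:**
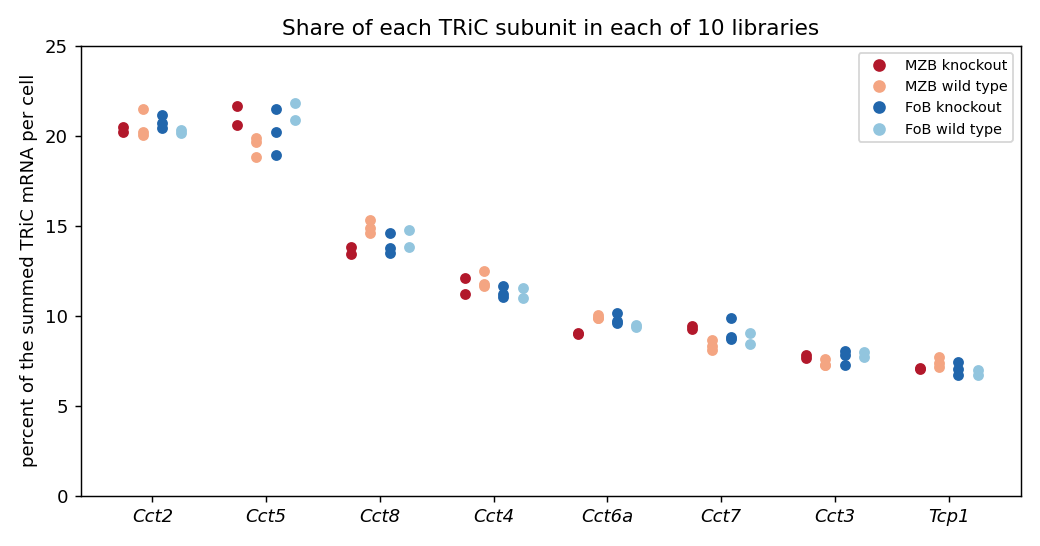
Share of each TRiC subunit in the summed TRiC mRNA per cell (percent, axis from 0), 1 point per library and 4 groups side by side. Cct2 and Cct5 each lie between 18.8% and 21.8% and Cct3 and Tcp1 between 6.71% and 8.04%, with the groups close together for each subunit.

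The second comparison set knockout against wild-type MZB. Per cell, 3 of 53 members were higher in knockout MZB (Hspa2, Dnajb13 and Dnajc30) and 0 were lower, against 13.3% of all genes called higher and 0.702% lower, so that the members' share of 5.66% lay below the background. The count was 17 without wild-type MZB library 2, 6 without knockout MZB library 1 and 1 without knockout MZB library 2 or without wild-type MZB library 1. The share of all genes called in each of those fits is not given here, so these counts have no background beside them. In the main fit all 53 members had a positive log2 difference, as did 91.7% of all genes. The median was 0.30 for the members and 0.32 for all genes. After rescaling 1 member was higher, Hspa2, and 0 were lower, against 3.36% of all genes called higher and 1.9% lower (5.26% in either direction). At an unadjusted p under 0.05 these counts were 3 higher and 2 lower, and limma voom called 1 higher. The share of all genes at these 2 criteria is not given, here or in the comparisons and lists that follow. Such counts therefore have no background beside them.

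Hspa2, which encodes an Hsp70 needed for sperm formation, was the member that moved with the knockout. It stood at 0.865 and 1.04 mRNA per cell in knockout MZB, against 0.198, 0.230 and 0.340 in wild-type MZB, and at 0.253, 0.315 and 0.291 in knockout FoB, against 0.355 and 0.274 in wild-type FoB. Both knockout MZB libraries lay above all 8 other libraries, among which the groups overlapped. The reads behind these values were 39 and 51 in knockout MZB, against 15, 13 and 18 in wild-type MZB, and 19, 28 and 33 in knockout FoB, against 33 and 27 in wild-type FoB. Per cell, Hspa2 rose in knockout MZB by 1.18 ± 0.19 on the log2(value + 0.3) scale (SE, limma adjusted p = 1.42e-06). This per-cell p-value can be too small, because the fit pools over genes a spread between libraries that the genes share. Rescaled it averaged 0.575 ± 0.020 in knockout MZB (SD, n = 2) and 0.194 ± 0.050 in wild-type MZB (SD, n = 3), a difference of 0.83 ± 0.13 (SE, limma adjusted p = 0.00509), which no longer passed without knockout MZB library 2 (limma adjusted p = 0.0758).

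In FoB the difference between knockout and wild type did not pass for Hspa2, at -0.06 ± 0.19 per cell and -0.04 ± 0.13 rescaled (SE), and the difference between the knockout effects in MZB and FoB was 1.24 per cell (limma adjusted p = 0.00219; 0.0599 without wild-type FoB library 1). Rescaled, that difference was 0.87 ± 0.18 and did not pass (SE, limma adjusted p = 0.0727). In the difference between knockout effects, 1 of 53 members was called higher per cell, against 2.02% of all genes (2.34% in either direction), and 0 after rescaling, against 0.31% called in either direction, with 4 higher and 3 lower at an unadjusted p under 0.05. Hspa2 (chromosome 12, 76403812 to 76406938 on mm10) overlaps 4930426I24Rik in the annotation.

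Markers of other cells moved with this comparison too. The summed level of the 3 FoB markers Fcer2a, Itgb7 and Klf2, each above 0 in all libraries, was 55.1 to 65.2 mRNA per cell in knockout MZB and 19.0 to 28.7 in wild-type MZB, and 114.4 to 141.7 in knockout FoB and 118.3 to 153.7 in wild-type FoB. For the macrophage and monocyte list, 2 of 5 markers were measured, Itgam and Ly6c2, which summed to 4.36 to 6.88 in knockout MZB and 0.354 to 0.735 in wild-type MZB. The dendritic marker Flt3, measured alone of 3, stood at 1.92 to 2.33 in knockout MZB and 0.261 to 0.441 in wild-type MZB. The T cell marker Lck, alone of 5, stood at 7.39 to 8.09 in knockout MZB and 3.80 to 4.54 in wild-type MZB, and no marker of the neutrophil, NK, plasma cell or erythroid lists was among the genes measured. The 5 markers of the B cell list also summed higher, at 1126.7 to 1261.1 in knockout MZB and 759.1 to 1012.7 in wild-type MZB. Rescaled, the median log2 difference was 1.03 for the FoB markers and 1.85 for Itgam and Ly6c2. It was 1.49 for Flt3, 0.54 for Lck and 0.06 for the B cell list. Hspa2 stood higher per cell in knockout MZB than in any FoB library. On that scale, 97.3% of all genes were called higher in knockout MZB than in knockout FoB. The part of the markers in the Hspa2 result was not tested.

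Dnajb13 and Dnajc30 passed per cell alone. Dnajb13 stood at 0.988 and 1.91 mRNA per cell in knockout MZB, against 0.587, 0.872 and 0.975 in wild-type MZB, from 19 and 40 reads in knockout MZB and 19, 21 and 22 reads in wild-type MZB. Dnajc30, a mitochondrial J protein, stood at 3.33 and 4.37 in knockout MZB, against 2.25, 2.58 and 2.53 in wild-type MZB. The knockout libraries were the higher ones for both genes, with log2 differences of 0.62 ± 0.20 (SE, limma adjusted p = 0.0251) and 0.58 ± 0.19 (SE, limma adjusted p = 0.0274). Neither passed without knockout MZB library 2 or without wild-type MZB library 1, and rescaled the differences were 0.33 ± 0.19 and 0.27 ± 0.12, which did not pass. Dnajc30 overlaps Bud23 in the annotation.

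The core chaperones did not pass in knockout MZB on either scale. Hsp90ab1 stood at 191 and 261 mRNA per cell in knockout MZB, against 129, 203 and 159 in wild-type MZB, and rescaled at 124 and 148 in knockout MZB, against 114, 138 and 117 in wild-type MZB. The rescaled libraries of both genotypes interleaved, with a difference of 0.14 ± 0.12 (SE, limma adjusted p = 0.523). Rescaled differences were 0.13 ± 0.19 for Hspa8, -0.07 ± 0.15 for Hsp90aa1, -0.23 ± 0.09 for Hspa4, -0.24 ± 0.13 for Hspd1, -0.19 ± 0.17 for Hspe1 and -0.11 ± 0.09 for Hspa9 (SE), none of which passed. The lowest rescaled value belonged to Dnajc2, the ribosome-bound J protein that works with Hspa14, at -0.27 ± 0.10 (SE, limma adjusted p = 0.136), and Hspa14 itself was at -0.04 ± 0.10. These 2 were chosen after their values were seen.

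**Figure D4:**
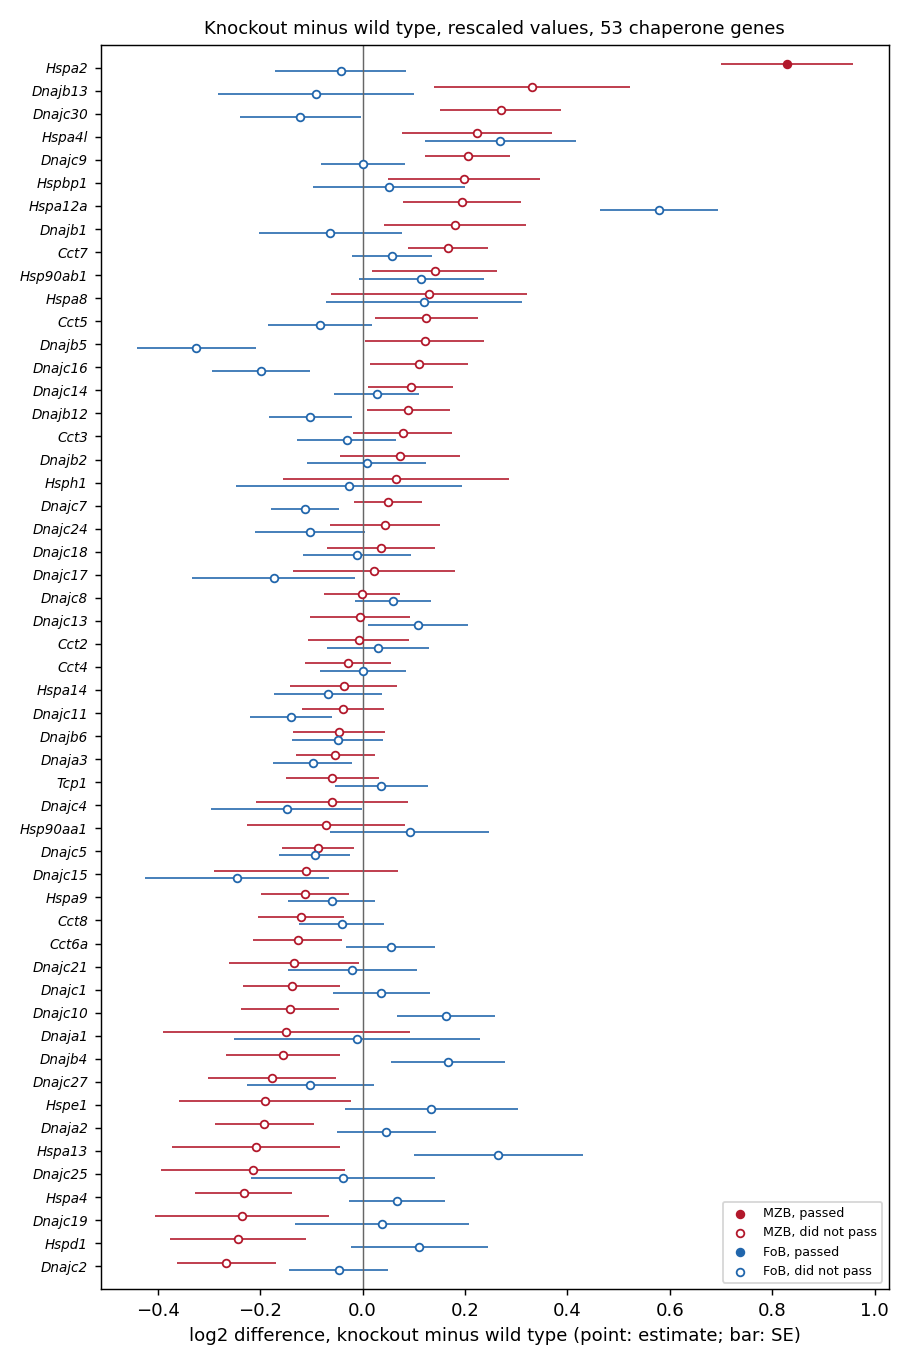
Rescaled log2 differences of knockout minus wild type for the 53 members in MZB (red) and FoB (blue), with bars for the SE and filled points where limma passed at an adjusted p under 0.05. Hspa2 in MZB (0.83) is the single filled point, and Hspa12a in FoB (0.58) is the farthest of the open ones.

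The last comparison set knockout against wild-type FoB, where 0 of 53 members passed on either scale, against 0.712% of all genes called in either direction per cell and 0.588% rescaled (0.454% higher). At an unadjusted p under 0.05, 1 member was higher and 1 lower after rescaling, and limma voom called 1 member higher. The rescaled medians were -0.01 for the members and for all genes. The member called by voom was Hspa12a, at 0.260, 0.257 and 0.223 mRNA per cell in knockout FoB, against 0.127 and 0.0785 in wild-type FoB, with 48, 56 and 62 reads against 29 and 19. Knockout and wild-type FoB libraries did not overlap, and the rescaled difference of 0.58 ± 0.12 on the log2(value + 0.3) scale just missed the threshold (SE, limma adjusted p = 0.0588), while with voom it was 1.32 (limma adjusted p = 0.0073). In MZB, Hspa12a stood at 1.61 and 1.51 in knockout, against 0.924, 1.15 and 1.05 in wild-type cells, a rescaled difference of 0.19 ± 0.12 that did not pass (SE, limma adjusted p = 0.34). In knockout FoB the monocyte markers Itgam and Ly6c2 also stood higher, at a sum of 2.45 to 3.24 mRNA per cell against 0.337 to 0.879 in wild-type FoB, and Flt3 at 0.376 to 0.512 in knockout FoB against 0.0892 to 0.0945 in wild-type FoB. Their part in the value of Hspa12a was not tested.

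Apart from the groups, libraries of 1 group differed most in a handful of members. The SD within groups, pooled over the 4 groups on the rescaled log2 scale, was 0.345 for Dnaja1, 0.313 for Hsph1 and 0.27 for Hspa8, higher than for 97.7%, 97.1% and 95.9% of all genes. Next came Dnajc15 at 0.242, Dnajb13 at 0.241, Hspe1 at 0.236, Dnajc25 at 0.225, Dnajc19 at 0.219 and Hsp90aa1 at 0.216, while the median was 0.115 for the members and 0.112 for all genes. Dnaja1 is the main class A partner of Hspa8 and Hsph1 its Hsp110 exchange factor, and both are known heat shock factor targets. At the steady end, Dnajc7 and Dnajc11 varied by 0.058 and Dnaja3 by 0.060.

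Knockout FoB library 1 stood out in these genes. Dnaja1 stood at 3.51, 6.75 and 6.87 in rescaled mRNA per cell in knockout FoB libraries 1 to 3, against 5.25 and 5.80 in wild-type FoB. Hsph1 stood at 3.01, 5.44 and 5.17 in knockout FoB, against 4.41 and 4.56 in wild-type FoB, and Hspa8 at 50.4, 86.4 and 71.5 in knockout FoB, against 59.6 and 65.3 in wild-type FoB. For each of these 3 genes library 1 was the lowest FoB library, and libraries 2 and 3 lay above both wild-type FoB libraries. Library 1 was the lowest of its group for 31 of the 53 members, but the same count over all genes was not made. This library also had the fewest reads (4161051), whose part in these values was not tested. The knockout MZB libraries differed in the same genes: Dnaja1 stood at 3.33 and 5.06, Hsph1 at 2.99 and 4.45 and Hspa8 at 59.8 and 81.1, with library 2 the higher in each. Wild-type MZB stood at 4.43, 4.54 and 4.81 for Dnaja1, 3.23, 4.05 and 3.22 for Hsph1 and 58.3, 68.4 and 64.5 for Hspa8 in wild-type MZB. Over the 7 members with GAANNTTC in their window, the pooled SD was 0.345 for Dnaja1, 0.313 for Hsph1, 0.236 for Hspe1, 0.18 for Hspd1, 0.141 for Dnajc27, 0.123 for Cct2 and 0.09 for Dnajb6, and the part of these letters in the spread was not tested.

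**Figure D5:**
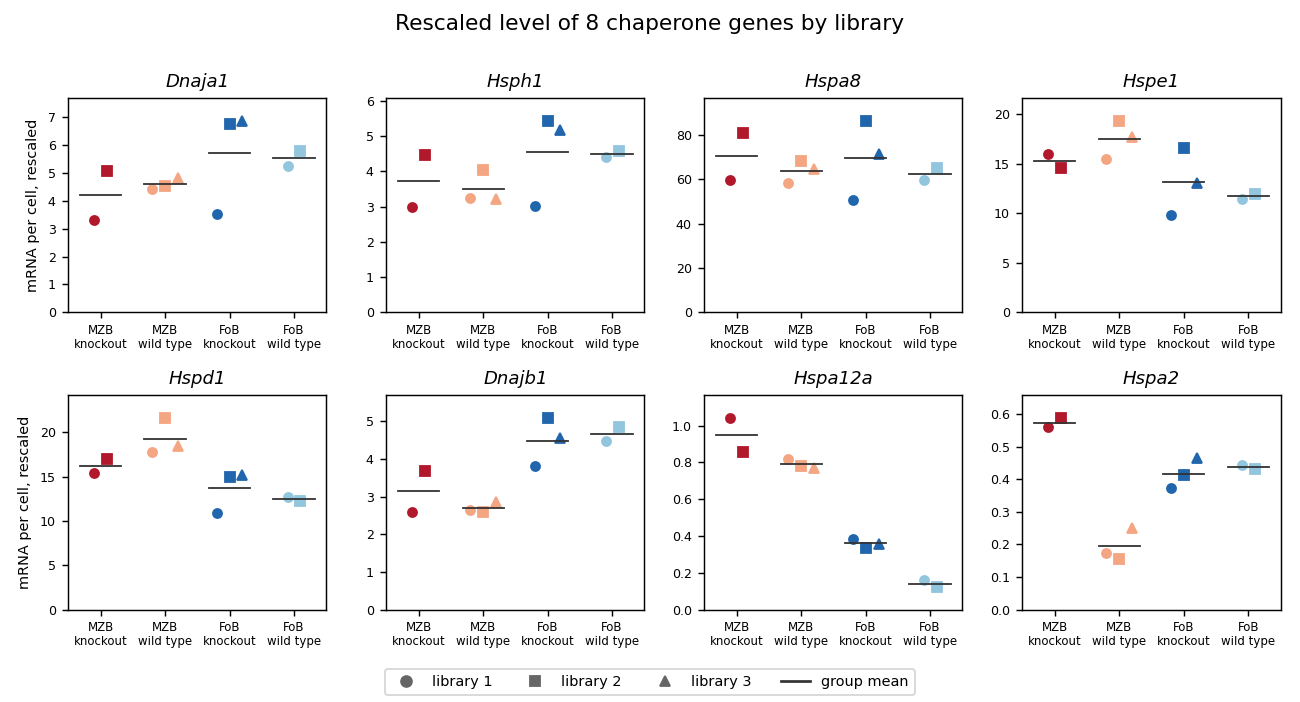
Rescaled mRNA per cell of 8 chaperone genes, with 1 symbol per library (circle, square and triangle for libraries 1 to 3), a line at each group mean and axes from 0. Dnaja1, Hsph1 and Hspa8 spread widely within the knockout groups (Dnaja1 from 3.51 to 6.87 in knockout FoB). Dnajb1 and Hspa12a differed between MZB and FoB in both genotypes, and Hspd1 did so in wild-type libraries but did not pass in knockout libraries. Hspa2 is highest in knockout MZB.

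Ratios between partners described the same libraries. The Hsp90 pair kept Hsp90ab1 at 4.31 to 5.74 times Hsp90aa1. Hspa8 stood at 13.5 to 20.0 times its exchange factor Hsph1, on average 19.1 times in knockout MZB and 18.3 times in wild-type MZB, and 15.5 times in knockout FoB and 13.9 times in wild-type FoB.

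The wider machinery around these genes was read from a list of 56 co-chaperones and heat shock regulators, of which 51 were measured. Between wild-type MZB and wild-type FoB, 9 were higher in MZB and 15 lower after rescaling, a split close to that of the members, against the same 25% and 24.9% of all genes. The higher ones by smallest p were Nudcd2, an Hsp90 co-chaperone (0.59), Grpel2, a nucleotide exchange factor of mitochondrial Hsp70 (0.48), Ppid, a prolyl isomerase that binds Hsp90 (0.62), and Txndc9, a regulator of TRiC (0.39). The lower ones were Tsc1, an Hsp90 co-chaperone and part of the TSC complex (-0.43), Bag1, an Hsp70 exchange factor (-0.35), Unc45a, a myosin chaperone (-0.43), and Pfdn6, a subunit of prefoldin, which delivers clients to TRiC (-0.70), as rescaled log2 differences with limma adjusted p from 0.000347 to 0.00245 over these 8. The transcription factor Hsf1, heat shock factor 1, stood at 5.50, 5.24 and 7.01 in rescaled mRNA per cell in wild-type MZB, against 7.41 and 8.80 in wild-type FoB, without overlap (-0.44, limma adjusted p = 0.0112; 0.121 without wild-type FoB library 2), and was named for its role after its value was seen.

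With the knockout in MZB, 1 of the 51 was lower after rescaling and 0 higher, against 1.9% and 3.36% of all genes. It was Vbp1, another prefoldin subunit, at 4.60 and 4.09 in knockout MZB, against 6.95, 7.43 and 6.19 in wild-type MZB, all knockout libraries lying below all wild-type ones (-0.62 ± 0.13, SE, limma adjusted p = 0.0226). In knockout FoB it stood at 4.91, 5.44 and 7.03, against 4.23 and 4.24 in wild-type FoB, a difference of 0.41 ± 0.13 that did not pass (SE, limma adjusted p = 0.23). The difference between the knockout effects was -1.03 ± 0.18 (SE, limma adjusted p = 0.0487), 1 of 51 lower against 0.144% of all genes. This difference passed in 8 of 18 alternatives and failed without any 1 of the 5 MZB libraries or either wild-type FoB library (highest limma adjusted p 0.236), and the call in MZB alone failed without either knockout MZB library or without wild-type MZB library 1 or 2 (highest limma adjusted p 0.23). In knockout FoB alone, 0 of the 51 passed after rescaling, with 7 at an unadjusted p under 0.05 and 0 with limma voom. Between knockout MZB and knockout FoB, 4 were higher and 7 lower in MZB, against 18.2% and 17% of all genes.

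Immediate early genes, which respond within minutes to stimuli, were looked at beside the inducible chaperones. Of 16 listed, 11 were measured, and between wild-type cells 9 of these were lower in MZB after rescaling and 0 higher, against 24.9% of all genes lower and 25% higher. In knockout MZB against wild-type MZB, 8 of the 11 were higher per cell, against 13.3% of all genes, and 2 after rescaling, against 3.36%, with 7 called in either direction at an unadjusted p under 0.05. When the wild-type cells were compared, Dnajb1 was lower in MZB after rescaling (-0.73). Hsph1, Dnaja1 and Hsp90aa1 did not pass there on that scale. With the knockout in MZB, Dnajb1 did not pass (0.18 rescaled, limma adjusted p = 0.464). The part of these genes in the levels of Dnajb1, or of the chaperones in knockout MZB, was not tested.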

How the data were processed

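The authors deposited 1 table of mRNA molecules per cell for 9690 genes in 10 libraries, a signal scaled by the authors by steps not given in the sources used here. Per the labels' protocols, polyadenylated RNA of 50000 cells per sample was made into stranded libraries, and the submitters' processing notes name STAR and mm10. Values were whole multiples of 1 step per gene and library, so whole reads were recovered (100.0% of genes within 0.1 of a whole number). The inverse of the step rose with exon length (Spearman rho 0.851 over 8720 genes). For 69.8% of these genes, length times step lay within 1.25 times of the median.

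All 10 libraries entered 1 limma 3.58.1 fit (R 4.3.3) on log2(value + 0.3), with an intensity trend, two-sided tests, Benjamini-Hochberg adjustment over all 9690 genes and a threshold of 0.05. A floor of 0.3 in 2 libraries removed 0 genes. For rescaled values, each library was divided by 1 factor, the trimmed mean of its log-ratios against the average of all libraries (0.3 of ratios and 0.05 of levels trimmed). The fit was tested on simulated data with 200 changed genes. Named were the TRiC subunits, the core chaperones, up to 10 members called per comparison and direction, and up to 4 co-chaperones. 1 further marker of the FoB list is not reported here, and counts and sums over that list leave it out. The members and lists were chosen with earlier results of these data known. Alternatives were another pseudocount, floor, scaling, variance model and sample set, a replicate block, voom on recovered reads and leaving out each library.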

Additional observations from a re-analysis of the deposited data

Results flagged for a closer look

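The knockout effects in MZB and FoB differed by the test of that difference for 1 member and 1 co-chaperone. For Hspa2 the effect per cell was 1.18 in MZB and -0.06 in FoB on the log2 scale, a difference of 1.24 (limma adjusted p = 0.00219), which passed in 14 of 15 alternatives and failed without wild-type FoB library 1 (limma adjusted p = 0.0599). Rescaled, the Hspa2 difference of 0.87 did not pass. For the prefoldin subunit Vbp1 the rescaled effects were -0.62 in MZB and 0.41 in FoB, a difference of -1.03 (limma adjusted p = 0.0487), which passed in 8 of 18 alternatives.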

How the results depend on the processing

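No named member or co-chaperone changed sign where either value passed. Of the single-gene values under alternatives, 8562 kept their side of the threshold, 173 were no longer past it and 67 newly passed. Members called in knockout MZB per cell were 3, against 8 with a pseudocount of 1, 1 with a floor of 1 and 1 to 17 with 1 library left out. Rescaled they were 1, against 0 with a floor of 1, which removes Hspa2 from the table tested, and 0 to 1 with 1 library left out. In knockout FoB they were 0 rescaled, against 1 with a pseudocount of 0.1, 1 without the trend and 1 with voom. Between wild-type MZB and FoB they were 44 per cell (30 to 45 with 1 library left out) and 21 rescaled (10 to 18). Between knockout MZB and FoB, where the alternatives were added after seeing the data (as for Kdm1a and the co-chaperones), they were 18 rescaled, against 11 with the compared groups alone and 4 to 18 with 1 library left out. For the difference between knockout effects they were 1 per cell, against 0 with a floor of 1 and 0 to 2 with 1 library left out, and 0 rescaled, against 1 without the trend, 2 with voom and 0 to 1 with 1 library left out. Except for the floor, the cause was not tested. The share of all genes called under each alternative is not given here. The members' share of all mRNA without Hsp90ab1 was 0.661% in knockout MZB, 0.676% in wild-type MZB, 0.650% in knockout FoB and 0.642% in wild-type FoB.

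The labels do not say that replicate numbers pair the libraries, and deviations of same-numbered libraries correlated between -0.223 and 0.169. With the replicate block, members called per cell were 2 in knockout MZB, 0 in knockout FoB, 43 between wild-type cells, 52 between knockout cells and 1 for the difference between knockout effects. Rescaled they were 1, 0, 18, 14 and 0 in that order. The block ended the rescaled calls of Vbp1 in knockout MZB (limma adjusted p = 0.0704) and in the difference between knockout effects (limma adjusted p = 0.206), and the per-cell call of Dnajc30 in knockout MZB. Depth limits the low members, since Hspa2 rested on 27.6 reads per library on average.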
